A study of Mus musculus with 6 samples.

Results

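The p53 network was read in undifferentiated mouse embryonic stem (ES) cells through a list of 33 genes that regulate p53, are switched on by it, or carry out apoptosis. Members were all probe sets of the array that carry 1 gene symbol and name a listed gene. This gave 30 probe sets for 30 of the 33 genes, out of 35557 probe sets in all, with 1 probe set per gene and 19938 genes named in this way over the whole array. Trp53, which encodes p53 itself and lies on chromosome 11, the cell-cycle inhibitor gene Cdkn1a and the pore-forming gene Bax were not analysed here.

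The Hira-null ES clone Cl34 (genotype Hira-/-) was compared with its parental wild-type line w9.5 (WT), with 3 Affymetrix Mouse Gene 1.0 ST arrays for each. HIRA is a chaperone that places the histone variant H3.3 into chromatin outside DNA replication. Both lines grew in serum-containing medium with ESGRO, a preparation of the cytokine LIF, and the design states that cells were taken at several degrees of confluence without tying a degree to an array. The Hira-null group is 1 clone, and the missing Hira gene and any other way in which that clone departs from its parent cannot be told apart. The labels call the arrays of a line biological replicates but name no separate cultures, so each p-value reflects array-to-array spread, which may be technical.

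p53 is a transcription factor that is kept low by MDM2 and MDM4 and accumulates after DNA damage and other stress. It switches on genes that halt the cell cycle, aid repair, or trigger apoptosis, and several of its targets (Mdm2, Ppm1d, Ccng1) feed back to limit it. Apoptosis runs through the BCL2 family at the mitochondrion, or through death receptors at the cell surface, and both routes end in caspases. Mouse ES cells are known for a low threshold for apoptosis.

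Values are log2 expression as deposited, and differences are Hira-null minus WT on that scale, so a difference of 1 is a doubling. The Hira probe set read 7.40, 7.05 and 6.81 in Hira-null arrays, against 7.49, 7.86 and 7.83 in WT arrays, and did not pass the test (limma, adjusted p = 0.352). All 10 measured ES cell markers passed the filter on low values, and their mean level was 10.06 to 10.48 in Hira-null arrays and 10.24 to 10.31 in WT arrays. Fibroblast markers averaged 5.15 to 5.69 in Hira-null arrays and 5.44 to 6.06 in WT arrays, with Dcn, Lum and Postn below the filter value in all 6 arrays. Endoderm markers averaged 5.30 to 5.61 in Hira-null arrays and 5.68 to 6.05 in WT arrays, with Afp and Ttr below the filter value in all 6 arrays. Hira-null replicate 3 stood apart from the other arrays: its correlation with them over all probe sets was 0.968 to 0.977, against 0.977 to 0.990 among the others. In such bulk RNA, fewer cells of a type and less RNA per cell cannot be told apart.

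No member passed the test between the lines, and most had somewhat higher values in the Hira-null arrays. Of the 30 measured genes, 29 passed the filter (at least 3 of 6 arrays above 3.78) and Fas did not. Adjusted p-values of the 29 were 0.220 to 0.996 (limma, adjusted over 25142 probe sets, of which 0.00398% were called). The difference was positive for 23 genes and negative for 6, with a median of 0.22 and with signs that turned for several genes, Mdm2 and Plk2 among them, when 1 array was left out. This stood beside a median of 0.00333 and 50.4% positive over all probe sets tested. The median was 0.048 without Hira-null replicate 3, 0.11 without WT replicate 3, 0.35 without Hira-null replicate 2 and 0.37 without WT replicate 1. At an unadjusted p under 0.05 there were 4 genes with higher values (Gadd45a, Pmaip1, Mcl1 and Perp, 13.8% of the 29) and 0 with lower ones, where 4.06% and 6.06% of all probe sets were (10.1% in either direction). That count over both directions was 10 (34.5%) without Hira-null replicate 2, beside 10.9% of all probe sets, and 2 (6.90%) without WT replicate 2, beside 7.33%.

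By class, 4 of 6 tested regulators had higher values (median 0.15), as did 5 of 7 arrest and repair genes (median 0.25) and 14 of 16 apoptosis genes (median 0.18). The 3 arrays of each line did not overlap for 6 genes with higher values, which were Gadd45a, Bbc3, Pmaip1, Mcl1, Bid and Perp. That is 20.7% of the 29, beside 7.09% of all probe sets (15.3% in either direction). Casp9 was the 1 gene with lower values and no overlap, or 3.45%, beside 8.17% of all probe sets. Without Hira-null replicate 2 the count without overlap in either direction was 14 instead of 7 (48.3%, beside 27.1% of all probe sets), and without Hira-null replicate 3 it was 7 (24.1%, beside 26.4%). For 25 of the 29 genes the 95% interval of the difference included 0. The other 4 are the genes with an unadjusted p under 0.05 (limma), or 13.8%, a threshold met by 10.1% of all probe sets.

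**Figure D1:**
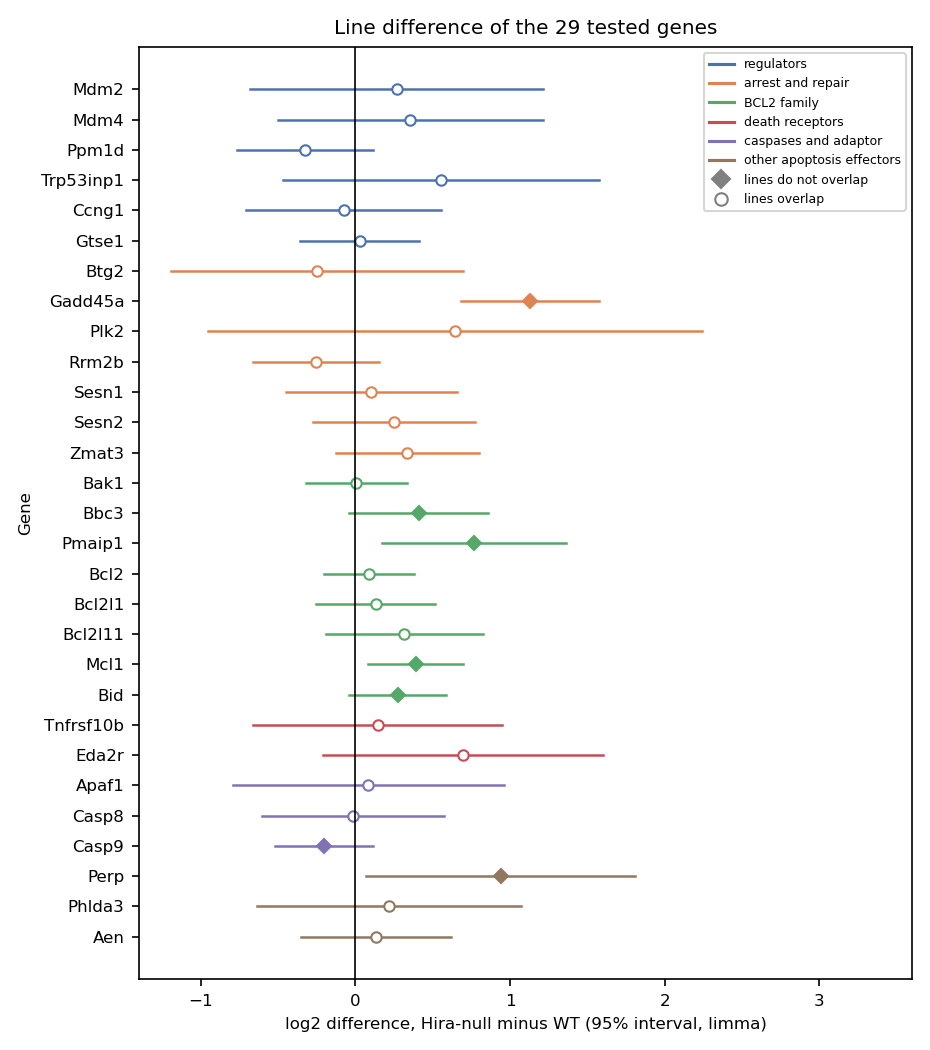
Log2 difference, Hira-null minus WT, for the 29 tested genes (horizontal axis), with 95% intervals from limma as lines and 1 colour per role. Filled diamonds are genes whose 3 Hira-null and 3 WT arrays do not overlap; Gadd45a lies farthest right among them, at 1.13, and Casp9 is the filled point left of 0.

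In each of the 6 tested regulators of p53 the Hira-null arrays spanned more than the difference between the lines. Mdm2, the ubiquitin ligase that marks p53 for degradation and is itself a p53 target, read 8.89, 8.17 and 9.65 in Hira-null arrays, against 9.16, 8.53 and 8.22 in WT arrays. The lines overlapped, with the highest value in Hira-null replicate 3 and the lowest in Hira-null replicate 2. Its difference was 0.27 (95% interval -0.68 to 1.21), and the arrays of the Hira-null line alone spanned 1.48.

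Mdm4, the partner of MDM2 that blocks p53's activation domain, read 9.07, 8.67 and 10.03 in Hira-null arrays and 9.32, 8.62 and 8.77 in WT arrays, a difference of 0.35 (95% interval -0.50 to 1.21). Trp53inp1, a stress-induced nuclear protein that modifies p53 activity, read 10.40, 9.51 and 10.99 in Hira-null arrays, against 10.38, 9.67 and 9.19 in WT arrays. In both genes replicate 3 was the highest Hira-null array and replicate 1 the highest WT array. Trp53inp1 had the largest difference among regulators, 0.55 (95% interval -0.47 to 1.58), and did not pass the test (limma, adjusted p = 0.750). It was 0.208 without Hira-null replicate 3, 0.275 without WT replicate 3, 0.87 without WT replicate 1 and 0.95 without Hira-null replicate 2.

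The measured members on chromosome 11 are Ppm1d and Ccng1, and none lies on chromosome 8. Ppm1d, the phosphatase WIP1 that switches p53 signalling off, read 8.02, 7.61 and 8.11 in Hira-null arrays, against 8.32, 8.41 and 7.99 in WT arrays. Its difference of -0.33 (95% interval -0.77 to 0.11) was the lowest of the 29, with an overlap through WT replicate 3. Ccng1, the p53 target cyclin G1, read 10.78, 10.36 and 11.22 in Hira-null arrays and 11.26, 10.73 and 10.60 in WT arrays, a difference of -0.077 (95% interval -0.70 to 0.55). The other 1349 tested genes of chromosome 11 had a median difference of -0.24, and 40.6% of them lay below Ppm1d and 73.5% below Ccng1. Relative to that median, Ppm1d stood at -0.083 and Ccng1 at 0.17. Gtse1, a microtubule-associated protein that restrains p53 in G2, read 8.69, 8.27 and 8.30 in Hira-null arrays and 8.55, 8.35 and 8.28 in WT arrays (difference 0.027).

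Gadd45a, a p53-inducible stress gene that slows the G2 to M transition and aids repair, had the largest line difference of the list. It read 8.88, 8.58 and 9.18 in Hira-null arrays, against 7.85, 7.86 and 7.54 in WT arrays. Every Hira-null value lay above every WT value. The means were 8.88 ± 0.30 and 7.75 ± 0.18 (SD, n = 3 each), a difference of 1.13 (SE 0.19, 95% interval 0.69 to 1.58) or 2.19-fold. The test was not passed (limma, adjusted p = 0.220, from 0.110 to 0.604 over the alternatives), and the difference was 0.98 to 1.28 when 1 array was left out.

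Other arrest and repair genes overlapped between the lines. Plk2, a polo-like kinase induced by p53, had the widest spread of the 29, with 8.16, 7.13 and 9.61 in Hira-null arrays and 8.67, 7.24 and 7.06 in WT arrays. Its arrays spanned 5.58-fold within the Hira-null line and 3.05-fold within WT, so the difference of 0.64 had an interval of -0.96 to 2.24. Btg2, an antiproliferative gene, read 6.86, 6.06 and 7.19 in Hira-null arrays and 7.69, 6.75 and 6.42 in WT arrays. Here WT replicate 1 was the highest array, and the difference was -0.25 (95% interval -1.19 to 0.69). Rrm2b, the p53-induced ribonucleotide reductase subunit, stood at -0.26, and Zmat3, an RNA-binding p53 target, at 0.34. The sestrin genes Sesn1 and Sesn2, whose products restrain mTORC1 signalling, stood at 0.10 and 0.25, and each overlapped between the lines. Sesn2 stood at 0.017 without Hira-null replicate 1 and at 0.44 without Hira-null replicate 2.

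Promoter windows are shown for 4 genes, chosen after their values and sequences were seen. Gadd45a was taken for its line difference and Gtse1 for its small line difference. Mdm2 and Ccng1 were taken as feedback genes that shared the highest array within each line. The windows are RefSeq's on GRCm38.p6, 250 bases before to 50 after a transcript start, 5′ to 3′ on the gene's strand. Capitals mark the p53 response-element decamer (purines, a C, A or T letters, a G, pyrimidines, which reads the same on both strands), and in Ccng1 and Gtse1 a run of 2 such decamers without a spacer in which 1 letter departs from the pattern. The window of Gadd45a is chr6:67037358-67037657 (minus strand), that of Mdm2 chr10:117710709-117711008 (minus), that of Ccng1 chr11:40755237-40755536 (minus) and that of Gtse1 chr15:85859696-85859995 (plus).
Gadd45a: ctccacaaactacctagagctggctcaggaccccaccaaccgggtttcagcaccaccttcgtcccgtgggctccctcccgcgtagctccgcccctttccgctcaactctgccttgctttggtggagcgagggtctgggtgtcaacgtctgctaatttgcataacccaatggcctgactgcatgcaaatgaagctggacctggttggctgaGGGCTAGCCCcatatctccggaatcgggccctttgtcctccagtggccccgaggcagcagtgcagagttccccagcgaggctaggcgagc
Mdm2: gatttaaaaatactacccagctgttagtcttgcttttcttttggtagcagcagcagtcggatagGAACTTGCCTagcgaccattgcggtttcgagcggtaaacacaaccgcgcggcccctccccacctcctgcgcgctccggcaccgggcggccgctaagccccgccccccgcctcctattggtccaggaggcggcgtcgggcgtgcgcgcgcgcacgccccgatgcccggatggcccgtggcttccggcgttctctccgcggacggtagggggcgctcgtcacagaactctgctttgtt
Ccng1: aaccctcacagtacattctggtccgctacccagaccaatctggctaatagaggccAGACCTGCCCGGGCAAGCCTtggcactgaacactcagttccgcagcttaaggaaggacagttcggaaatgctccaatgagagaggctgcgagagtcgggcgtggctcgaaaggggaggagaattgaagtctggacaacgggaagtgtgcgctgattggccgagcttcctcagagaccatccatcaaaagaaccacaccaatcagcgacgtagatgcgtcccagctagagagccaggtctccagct
Gtse1: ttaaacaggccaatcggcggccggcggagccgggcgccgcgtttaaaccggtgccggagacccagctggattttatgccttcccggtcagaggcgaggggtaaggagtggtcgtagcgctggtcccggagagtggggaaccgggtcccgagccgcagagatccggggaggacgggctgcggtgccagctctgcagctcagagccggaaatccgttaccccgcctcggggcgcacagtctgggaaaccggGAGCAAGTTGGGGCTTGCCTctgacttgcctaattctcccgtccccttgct
The decamer begins 40 bases before the start in Gadd45a and 186 before it in Mdm2, and the longer run begins 195 bases before the start in Ccng1 and 1 base before it in Gtse1.

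Windows were found for 24 of the 30 measured genes, 33 windows in all. A decamer was present in 8 of these windows (24.2%), beside 8.36% of all 32851 windows. The Aen windows overlap and hold the same decamer, which is counted in each. The 8 windows belong to 7 of the 24 genes (Gadd45a, Mdm2, Ccng1, Gtse1, Aen, Sesn1 and Ppm1d). Over all windows, 2582 of 27025 genes had a decamer. A pair of exact decamers 0 to 13 bases apart was present in 0 of the 33 windows, beside 24 (0.0731%) of all windows. Under the looser pattern, set after the sequences were seen, the run of 2 adjacent decamers with at most 1 departing letter was present in the windows of Ccng1 and Gtse1 and in 0.0883% of all windows. Of the 7 genes, Gadd45a had no overlap between the lines and the other 6 overlapped. Over all probe sets 15.3% had no overlap in either direction, and a link between decamer and line difference was not tested. A match describes the sequence, not binding.

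**Figure D2:**
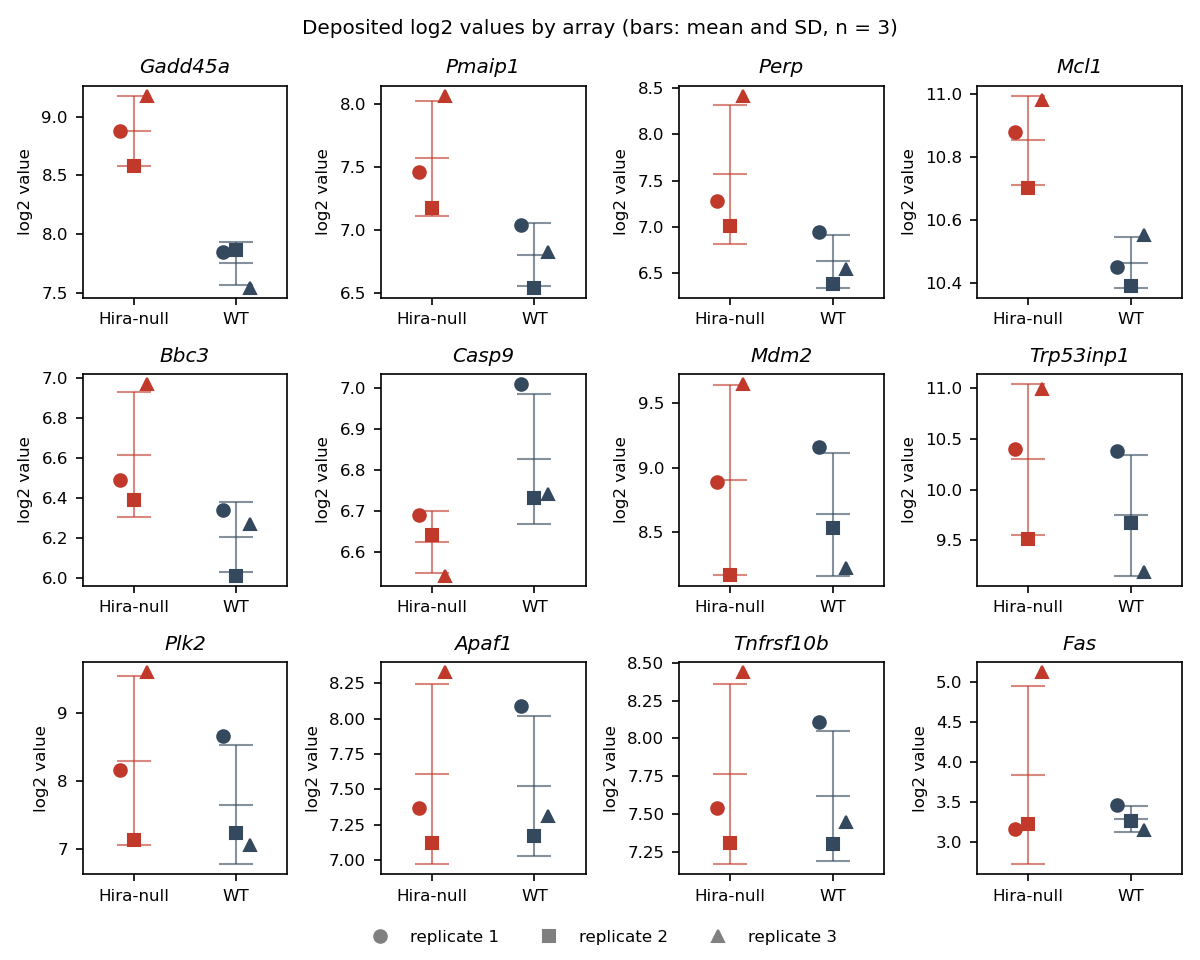
Deposited log2 values (vertical axis) of 12 genes in the 3 Hira-null and 3 WT arrays, with symbols for the replicate number and bars for the mean and SD (n = 3). In the top row the Hira-null arrays lie above the WT arrays; for Mdm2, Trp53inp1, Plk2, Apaf1 and Tnfrsf10b replicate 3 is the highest Hira-null array, replicate 1 the highest WT array, and the lines overlap.

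All 8 tested BCL2 family genes of the list had positive differences (median 0.295), and 4 of them did not overlap between the lines. Bak1 turned negative with array weights (-0.015) and without some arrays. Over all probe sets 50.4% were positive and 7.09% higher without overlap. Bik, Hrk, Bmf, Bok, Bcl2l2 and Bad, further family genes outside the list, overlapped between the lines. Their differences were 0.16, 0.19, 0.14, 0.017, 0.01 and 0. Pmaip1, the BH3-only protein NOXA that neutralises MCL1, read 7.46, 7.18 and 8.07 in Hira-null arrays, against 7.04, 6.54 and 6.83 in WT arrays. The lowest Hira-null array lay 0.14 above the highest WT array, and the difference was 0.77 (SE 0.25, 95% interval 0.17 to 1.36) or 1.70-fold (limma, adjusted p = 0.387). Mcl1, the anti-apoptotic partner of NOXA, read 10.88, 10.70 and 10.98 in Hira-null arrays, against 10.45, 10.39 and 10.55 in WT arrays. All 3 Hira-null arrays were higher, by a small and even step of 0.39 (SE 0.13, 95% interval 0.08 to 0.70; limma, adjusted p = 0.393).

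Bbc3, which encodes the BH3-only protein PUMA, read 6.49, 6.39 and 6.97 in Hira-null arrays and 6.34, 6.01 and 6.27 in WT arrays. The lines were separated by 0.05, and the difference was 0.41 (95% interval -0.04 to 0.86), or 0.23 without Hira-null replicate 3. Bid, which links death receptors to mitochondria, read 7.16, 6.99 and 7.10 in Hira-null arrays and 6.64, 6.91 and 6.88 in WT arrays. Its difference was 0.27 (95% interval -0.04 to 0.59). Bcl2, the founding anti-apoptotic member, read 4.63, 4.64 and 4.83 in Hira-null arrays, against 4.67, 4.62 and 4.54 in WT arrays. It overlapped between the lines, with a difference of 0.09 (95% interval -0.20 to 0.38). The anti-apoptotic Bcl2l1 (BCL-XL) stood at 0.13, the BH3-only Bcl2l11 (BIM) at 0.32 and the pore-former Bak1 at 0.00667. The 95% interval of Bak1 was -0.32 to 0.34.

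Death receptors were led by Hira-null replicate 3. Fas, the receptor for FAS ligand and a p53 target, read 3.16, 3.23 and 5.13 in Hira-null arrays, against 3.47, 3.26 and 3.15 in WT arrays. It exceeded the filter in that 1 array and was not tested, and the other Hira-null arrays lay within or beside the WT values. Tnfrsf10b, the TRAIL receptor DR5, read 7.54, 7.31 and 8.44 in Hira-null arrays and 8.11, 7.30 and 7.45 in WT arrays, a difference of 0.14 (95% interval -0.66 to 0.95). Eda2r, the ectodysplasin A2 receptor on chromosome X, read 8.77, 7.70 and 9.13 in Hira-null arrays and 8.24, 7.82 and 7.46 in WT arrays. Replicates 1 and 3 of the Hira-null line exceeded every WT array and replicate 2 did not, and the difference was 0.69 (95% interval -0.21 to 1.60), or 0.395 without Hira-null replicate 3 and 1.11 without Hira-null replicate 2.

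Of the caspases and their adaptor, Casp9, the initiator caspase of the mitochondrial route, had lower values in all Hira-null arrays. It read 6.69, 6.64 and 6.54 in Hira-null arrays, against 7.01, 6.73 and 6.74 in WT arrays. The gap between the lines was 0.04 and the difference -0.20 (95% interval -0.52 to 0.11; limma, adjusted p = 0.687), or -0.07 with Hira-null replicate 3 and WT replicate 1 left out. Apaf1, the adaptor that assembles with caspase 9 and a p53 target, read 7.37, 7.12 and 8.33 in Hira-null arrays and 8.09, 7.17 and 7.31 in WT arrays. Its difference was 0.083 (95% interval -0.79 to 0.96). Casp8, the initiator of the receptor route, had low values of 3.64, 3.96 and 4.54 in Hira-null arrays and 4.31, 3.86 and 4.02 in WT arrays.

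Perp, a membrane protein of the p53 apoptosis programme that also builds desmosomes, had the second largest difference of the 29. It read 7.28, 7.01 and 8.42 in Hira-null arrays, against 6.95, 6.39 and 6.55 in WT arrays. Each Hira-null array was above each WT array, though by 0.06 at the closest. The difference was 0.94 (SE 0.37, 95% interval 0.07 to 1.81) or 1.92-fold (limma, adjusted p = 0.455), and 0.515 without Hira-null replicate 3. Phlda3, an inhibitor of AKT, and Aen, an apoptosis-enhancing nuclease, stood at 0.22 (95% interval -0.64 to 1.07) and 0.13 (95% interval -0.35 to 0.62), and both overlapped between the lines.

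Within each line, many members shared the array in which they were highest. Replicate 3 was the highest Hira-null array for 21 of the 29 genes (72.4%) and replicate 2 the lowest for 23 (79.3%), beside 36.2% and 25.9% of all probe sets. In the WT line replicate 1 was the highest for 20 (69.0%), beside 35.7%. For 17 genes (58.6%) both held at the top of their lines, beside 19.6% of all probe sets. These 17 were Apaf1, Bbc3, Bcl2, Btg2, Casp8, Ccng1, Eda2r, Mdm2, Mdm4, Perp, Phlda3, Plk2, Pmaip1, Rrm2b, Tnfrsf10b, Trp53inp1 and Zmat3. Genes are not independent, so these shares carry no test, and the arrays were compared in this way with their values known.

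The median deviation of the 29 genes from their 6-array means was 0.13, -0.21 and 0.395 in Hira-null replicates 1 to 3, against 0.14, -0.24 and -0.21 in WT replicates 1 to 3. By this median, Hira-null replicate 2 lay with WT replicates 2 and 3, and Hira-null replicate 1 with WT replicate 1. The same medians over all probe sets lay between -0.0133 and 0.0167. Of the 3 classes, regulators covered the widest span, from -0.47 in Hira-null replicate 2 to 0.64 in Hira-null replicate 3, and by role the 2 tested death receptors reached 0.85 in Hira-null replicate 3 and -0.48 in WT replicate 3. The medians of the 8 tested BCL2 family genes of the list separated by line. They were 0.20, 0.0175 and 0.20 in Hira-null arrays and -0.11, -0.15 and -0.13 in WT arrays. Of the single genes, Bak1, Bcl2, Bcl2l1 and Bcl2l11 overlapped between the lines. Bbc3, Bcl2 and Pmaip1 are among the 17 genes for which Hira-null replicate 3 and WT replicate 1 were highest of their lines. The family genes outside the list, named above, each overlapped between the lines. The SD within a line had a median of 0.56 (Hira-null) and 0.36 (WT) for regulators and 0.17 and 0.16 for the BCL2 family, beside 0.22 and 0.17 over all probe sets. The Hira-null arrays spanned more than 1 for 10 of the 29 genes (34.5%), beside 10.9% of all probe sets, and the WT arrays did for 3 (Trp53inp1, Btg2 and Plk2, 10.3%), beside 5.18%.

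Mean levels of the markers of other cell types followed the same arrays in both lines. Hira-null replicate 3 had the highest mean of its line for fibroblast markers (5.69) and endoderm markers (5.61), and WT replicate 1 that of its line (6.06 and 6.05). The same arrays had the lowest mean of their lines for ES cell markers. In the Hira-null line it was 10.06 in replicate 3, against 10.48 and 10.39 in replicates 1 and 2. WT replicate 1 lay close to the other WT arrays, at 10.24 against 10.31 in both. Single markers differed, and Nanog, Sox2, Fgf4 and Dppa5a were highest of the WT line in replicate 1. Fgf4 and Esrrb were highest of the Hira-null line in replicate 3. The part of these values, and of confluence, in the array pattern was not tested. Without Hira-null replicate 3 and WT replicate 1 the differences were 1.03 for Gadd45a, 0.635 for Pmaip1, 0.675 for Perp and 0.32 for Mcl1. The median over the 29 genes was then 0.175.

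**Figure D3:**
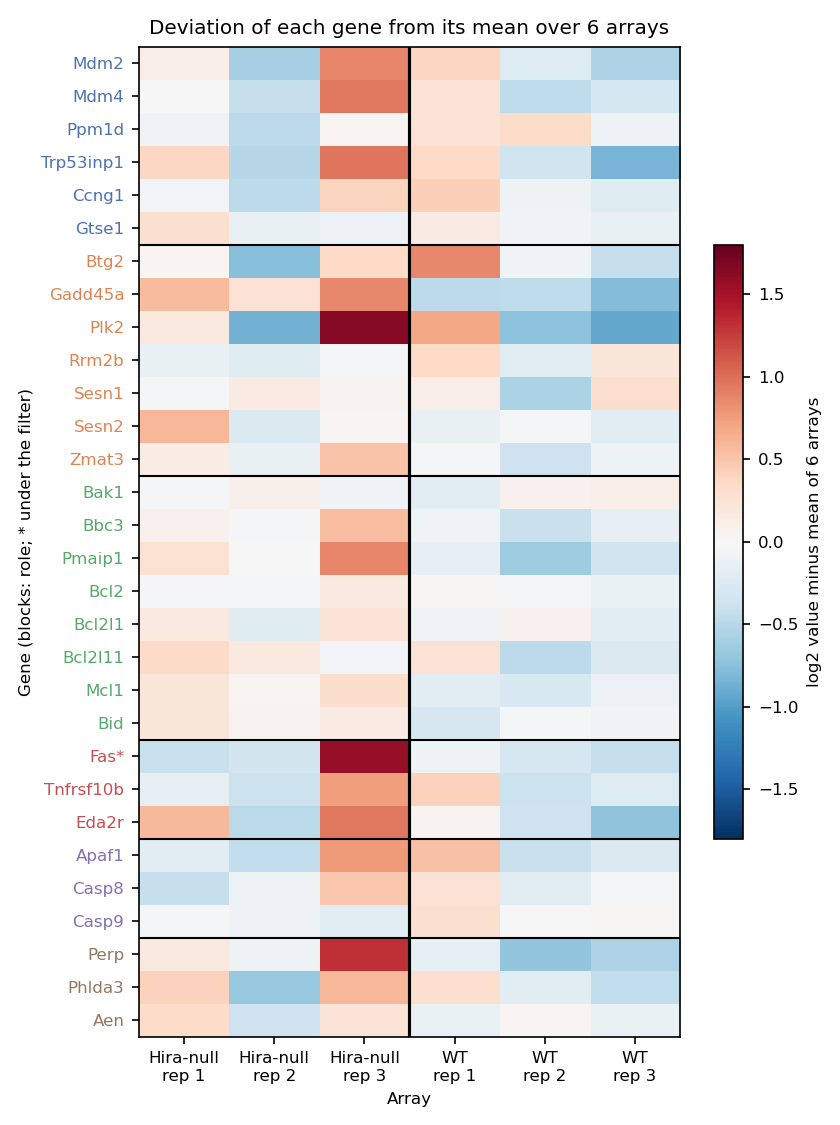
Colour gives the log2 value of each of the 30 measured genes (rows, in blocks by role) minus its mean over the 6 arrays (columns, Hira-null left of WT). Red columns of Hira-null replicate 3 and, more weakly, WT replicate 1 cross most blocks, whereas the BCL2 family block, apart from Pmaip1, shows small deviations and Gadd45a is red in all 3 Hira-null arrays.

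**Figure D4:**
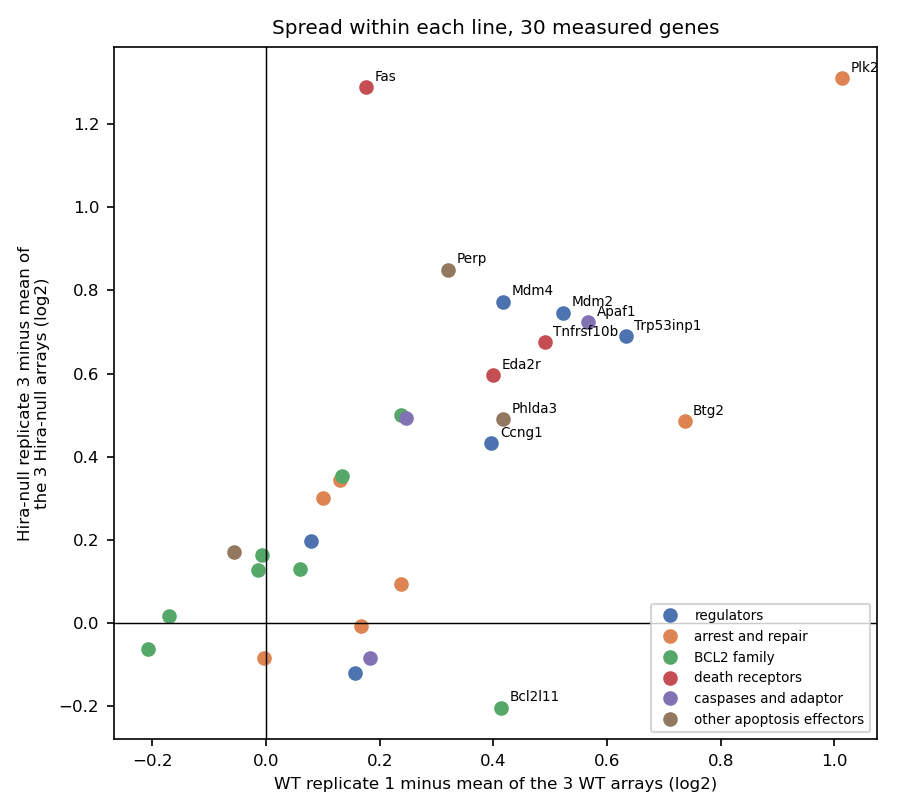
Each point is 1 of the 30 measured genes, placed by the deviation of WT replicate 1 from its line mean (horizontal, log2) and of Hira-null replicate 3 from its line mean (vertical, log2). Plk2 lies farthest out on both axes (1.01 and 1.31), Fas is high on the vertical axis only (1.29), and most of the BCL2 family lies near the origin.

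Further genes of the network were read from lists that do not overlap the 33. Of 23 further p53 targets tested, 0 passed the test (limma; 3 had an unadjusted p under 0.05, all higher), 16 had higher values and the median was 0.16. Over all probe sets 4.06% had an unadjusted p under 0.05 and a higher value, 10.1% one in either direction, and 50.4% a higher value. Ei24, an endoplasmic reticulum protein of autophagy induced by p53, read 9.36, 9.08 and 9.37 in Hira-null arrays, against 8.75, 8.64 and 8.51 in WT arrays. All Hira-null arrays were higher, with a difference of 0.64 (SE 0.14; limma, adjusted p = 0.233). Zfp365 stood at 0.44 and the adenylate kinase gene Ak1 at 0.46, both higher without overlap. Trp53i13, on chromosome 11, stood at -0.35, lower without overlap. The 1349 chromosome 11 genes set beside Ppm1d and Ccng1 above had a median of -0.24. Over all probe sets 7.09% were higher and 8.17% lower without overlap. The list's median deviations were 0.33 in Hira-null replicate 3 and 0.14 in WT replicate 1, and -0.19 to -0.017 in the other arrays.

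Of 18 further p53 regulators, 0 passed the test (limma; 3 had an unadjusted p under 0.05, 2 of them higher, or 16.7%, beside 10.1% of all probe sets) and the median difference was 0.135. Trp53bp1, a damage-response protein that binds p53, read 7.36, 7.27 and 7.21 in Hira-null arrays, against 7.85, 7.80 and 7.85 in WT arrays. The arrays within each line were close and the lines apart, with a difference of -0.55 (SE 0.12; limma, adjusted p = 0.233). The p53 relative Trp73 stood at 0.50, the coactivator gene Crebbp at 0.37 and Cdkn2a, which encodes the MDM2 inhibitor ARF, at -0.42. Of 24 further apoptosis genes, 0 passed the test (limma; 1 had an unadjusted p under 0.05, lower, or 4.17%, beside 6.06% of all probe sets lower), and the median was 0.00833. Tradd, a death-receptor adaptor on chromosome 8, stood at -0.44, Dffb, an apoptotic nuclease, at 0.32, Aifm1, a mitochondrial flavoprotein, at -0.34, and Bik, a BH3-only gene, at 0.16. Their median deviations by array lay between -0.097 and 0.089, a narrower span than that of the p53 targets.

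**Figure D5:**
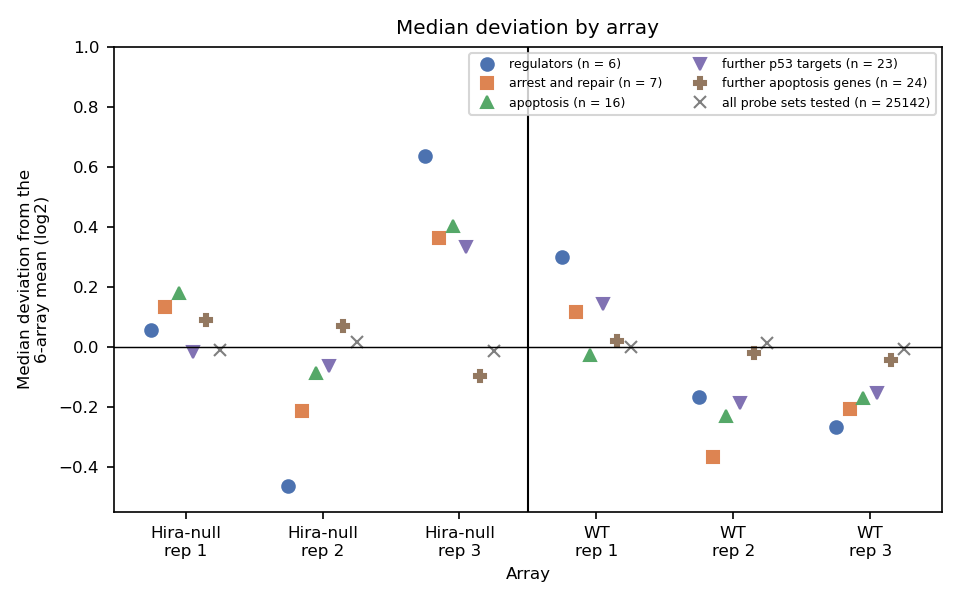
Median deviation from the 6-array mean (vertical, log2) in each array (horizontal, Hira-null left of WT) for the regulators, arrest and repair genes and apoptosis genes, for 2 lists of further genes, and for all 25142 probe sets tested. The member classes and the further p53 targets are highest in Hira-null replicate 3, while further apoptosis genes stay within 0.1 of 0.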

How the data were processed

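The authors deposited log2 expression values for 35557 probe sets on 6 arrays; GCRMA, which corrects background and normalizes between arrays, is named in the submitters' processing notes without a version. Values ran from 1.14 to 14.03, which fits a log2 scale, array medians were 4.93 to 5.02, and the values were used as they stand. Genome build, annotation and background levels were not given in the sources used here. Of 21789 probe sets with 1 symbol, 21698 were matched by Entrez identifier to a GRCm38.p6 gene table, which gave current symbols and chromosomes.

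Probe sets with at least 3 of 6 arrays above 3.78 (the 30th percentile) were kept, 25142 in all, and fitted with limma 3.58.1 (lmFit, eBayes, two-sided, no covariates) in R 4.3.3, with Benjamini-Hochberg adjustment and a threshold of 0.05. The fit was tested on simulated data. The number of arrays limits precision (median standard error of a difference 0.17). Members, lists, roles and the alternatives were chosen with earlier results of these data known. All members are named, and from each further list of pathway genes the 4 genes with the smallest unadjusted p, with the probe set of highest mean per gene. The BCL2 family genes of the further apoptosis list are named as well. Promoter windows were scanned for the p53 decamer with up to 1 departing letter in a pair, a limit chosen after the sequences were seen. Alternatives were filters, normalizations, variance models, array weights, a replicate block and left-out arrays.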

Additional observations from a re-analysis of the deposited data

How the results depend on the processing

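No member was called under any of the alternatives run (limma, 0 of the members tested; unadjusted p under 0.05 for 2 to 10 of them). Over all probe sets 1 was called, against 5 with array weights, 2 with median centring, 2 with the stricter filter at the 50th percentile, 0 with the replicate block, 0 with Hira-null replicate 3 and WT replicate 1 left out, and 0 to 41 when 1 array was left out. Genes without overlap numbered 7 to 14 and the median difference was 0.048 to 0.37 when 1 array was left out, where 22.9% to 27.1% of all probe sets had no overlap, against 15.3% with all arrays. With each gene counted once under each alternative, 27 differences of single genes changed sign and 408 did not. These are not counts of genes, and the cause was not tested. With array weights Bak1 read -0.015, Apaf1 -0.049 and Aen -0.0012; with that pair left out Bak1 read -0.065; and Ccng1 read 0.17 relative to its chromosome. When 1 array was left out, ranges that crossed 0 were -0.11 to 0.63 for Mdm2, -0.033 to 0.65 for Mdm4, -0.29 to 0.14 for Ccng1, -0.11 to 0.105 for Gtse1, -0.52 to 0.12 for Btg2, -0.012 to 1.23 for Plk2, -0.16 to 0.28 for Sesn1, -0.097 to 0.068 for Bak1, -0.195 to 0.39 for Tnfrsf10b, -0.28 to 0.37 for Apaf1, -0.26 to 0.19 for Casp8, -0.028 to 0.61 for Phlda3 and -0.0017 to 0.35 for Aen. Of the ranges not given in full above, the following kept their sign but had ends over 1.5 times apart. They were -0.45 to -0.175 for Ppm1d, -0.42 to -0.14 for Rrm2b, 0.165 to 0.49 for Zmat3 and 0.025 to 0.125 for Bcl2. Further ones were 0.048 to 0.27 for Bcl2l1, 0.16 to 0.52 for Bcl2l11 and -0.25 to -0.11 for Casp9. The same held for Bbc3 (0.23 to 0.52), Pmaip1 (0.52 to 0.96), Bid (0.19 to 0.32) and Perp (0.515 to 1.22). The replicate number did not pair the arrays: deviations of same-numbered arrays correlated at -0.34, 0.17 and -0.099 for numbers 1 to 3, and with the block the lowest adjusted p of a member was 0.493. No alternative by mean over several probe sets per gene was run, because each member has 1 probe set.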
